A study of Mus musculus with 9 samples.

Results

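Cholecystokinin, gastrin, secretin, ghrelin, neurotensin, tachykinin 1, proenkephalin and galanin are peptides of gut endocrine cells and neurons, and their 8 precursor genes (Cck, Gast, Sct, Ghrl, Nts, Tac1, Penk and Gal) were followed in mouse pancreatic islets. The 8 genes were chosen by name, and from a list drawn up with the islet comparison described here in view, out of 25611 genes in the count table. The islets came from 4-week-old mice. The 4 control libraries were from Glis3fl/fl mice, which carry a conditional allele of the zinc finger transcription factor Glis3. The 3 libraries called labelled knockout were from Pdx1-Cre;Glis3fl/fl mice, in which the Pdx1 promoter drives Cre recombinase in the pancreatic lineage. Both groups carried the conditional allele, and no group carried the driver alone, so the driver and the deletion cannot be told apart. Binding was read from 1 list of 21254 peaks, from islets of 8-week-old Glis3-eGFP mice in which an antibody against GFP pulled down the tagged protein, with no replicate.

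Gut and brain peptides are made as long precursors. Prohormone convertases cut them at basic residues, carboxypeptidase E trims the ends, and peptidylglycine amidating enzyme finishes many of them with an amide. Cholecystokinin and gastrin end in the same active sequence and share the receptors Cckar and Cckbr. Islet cells and gut endocrine cells use many of the same transcription factors and the same secretory granules, and gastrin is known from the pancreas of the embryo, whereas ghrelin marks an islet cell type that is common around birth and rare in the adult.

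Total counts ran from 18297697 to 48054551 in controls and from 12099365 to 22578480 in labelled knockouts. Levels below are counts scaled to a library of 1000000 (CPM) after TMM scaling, and they are compared between libraries and not between genes, since no gene lengths were used. Glis3 itself was not lower in the labelled knockouts, at 54.2 ± 3.11 CPM (SD, n = 3) against 37.8 ± 6.95 CPM (SD, n = 4). Its log2 fold change was 0.52 (SE 0.14, edgeR adjusted p = 0.0257, or 0.0505 with the replicate number as a block), and reads summed over the full gene leave the deletion unchecked. That call also ended when control 3 (0.0945), control 4 (0.085), labelled knockout 1 (0.0501) or labelled knockout 3 (0.117) was left out. The labels give no sex. Xist reads were present in controls 1 and 2 and labelled knockouts 1 and 2 (235 to 270 CPM) and near absent from the other 3 libraries (0.221 to 0.426 CPM). Labelled knockout 1 stood apart in some stomach genes, with pepsinogen C (Pgc) at 58.6 CPM against 0.907 and 7.09 in labelled knockouts 2 and 3.

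Promoter sequences from RefSeq (build GRCm38.p6, 250 bases before to 50 after the annotated start) matched 7 of the 8 genes. The 3 genes with the largest differences between the groups are printed to show what lies at their starts. In Cck (chr9:121495645-121495944, minus strand) the capitals mark the half-site of the cyclic AMP response element, TGACG on the opposite strand. In Gast (chr11:100334157-100334456, plus strand) they mark a TATA box, TATAAA on the opposite strand. In Sct (chr7:141279084-141279383, minus strand) they mark the 112 bases that lie inside a Glis3-eGFP peak.
Cck: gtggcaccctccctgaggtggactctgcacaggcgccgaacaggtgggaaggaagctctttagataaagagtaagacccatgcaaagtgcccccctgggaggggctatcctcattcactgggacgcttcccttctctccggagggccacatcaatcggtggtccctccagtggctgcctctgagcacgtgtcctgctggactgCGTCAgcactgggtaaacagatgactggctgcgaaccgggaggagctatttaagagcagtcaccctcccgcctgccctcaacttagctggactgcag
Gast: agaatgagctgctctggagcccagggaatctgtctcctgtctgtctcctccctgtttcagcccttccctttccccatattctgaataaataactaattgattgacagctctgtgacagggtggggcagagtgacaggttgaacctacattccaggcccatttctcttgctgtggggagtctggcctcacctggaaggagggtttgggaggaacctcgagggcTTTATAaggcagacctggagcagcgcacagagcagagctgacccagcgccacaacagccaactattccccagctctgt
Sct: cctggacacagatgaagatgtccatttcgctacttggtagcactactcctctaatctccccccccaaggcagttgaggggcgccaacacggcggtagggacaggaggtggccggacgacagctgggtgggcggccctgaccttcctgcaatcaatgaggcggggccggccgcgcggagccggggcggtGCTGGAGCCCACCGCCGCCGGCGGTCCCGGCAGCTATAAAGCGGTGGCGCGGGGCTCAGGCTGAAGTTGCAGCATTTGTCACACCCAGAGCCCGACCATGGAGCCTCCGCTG
The Cck half-site began 47 bases before the start. The Gast TATA box began 28 bases before the start, and so did a TATAAA on the printed strand of Sct, which lay inside the peak. Both strands were searched. TATAAA occurred in 2 of the 7 promoters and in 13.6% of 32544 mouse promoters of the same length. TGACG occurred in 4 of 7 (Cck, Nts, Tac1 and Gal) and in 20.9%. The GC box GGGCGG occurred in 3 of 7 (Tac1, Gal and Sct) and in 35.9%. The Glis core TGGGGGGT and its looser form TGGGNGGT, which includes it, occurred in 1.53% and 6.12% of all promoters, and these letters are not in the 7 windows. A match is a description of the letters and not a binding site. The Sct promoter was 66.7% G and C, against a median of 53.0% over all promoters. The RefSeq start of Tac1 lay 176 bp from the 5′ end in the count table, while the other 6 starts coincided.

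Cck and Gast, the related hormones of the duodenum and the stomach antrum, stood far higher in the labelled knockouts. Cck (chr9:121489824-121495694, minus strand) was at 0.174, 0.0972, 0 and 0.383 CPM in controls 1 to 4, from 5, 5, 0 and 8 reads. It was at 164, 88.9 and 121 CPM in labelled knockouts 1 to 3, from 2208, 2058 and 2729 reads. All 3 labelled knockouts were high and all 4 controls were close to 0, so the groups did not overlap, and the lowest labelled knockout was 232 times the highest control. The fitted log2 fold change was 9.60 (SE 0.38), and the ratio of summed reads was 771, with a 95% counting interval of 487 to 1300. That interval is wide because the controls held 18 reads in all.

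Gast (chr11:100334407-100336997, plus strand) was at 0.557, 0.37, 1.4 and 0.67 CPM in controls and at 27.7, 29.2 and 22.1 CPM in labelled knockouts. The groups did not overlap, and the lowest labelled knockout was 15.8 times the highest control. The log2 fold change was 5.27 (SE 0.33), and the ratio of summed reads was 42.6 (95% counting interval 33.6 to 54.8). Unlike Cck, which reached the filter's minimum of 0.443 CPM in none of the controls, Gast reached it in 3 of 4.

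Sct, the precursor of the duodenal hormone that stimulates bicarbonate secretion by pancreatic ducts, showed the third large difference. Sct (chr7:141278329-141279133, minus strand) was at 0.383, 0.486, 0.852 and 0.383 CPM in controls and at 7.2, 7.39 and 4.92 CPM in labelled knockouts. Every labelled knockout was above every control, by at least 5.77 times. The log2 fold change was 3.65 (SE 0.41), and the ratio of summed reads was 13.0 (95% counting interval 9.81 to 17.4).

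Tac1 encodes substance P and neurokinin A, sensory and enteric neuropeptides. Tac1 (chr6:7554885-7562978, plus strand) was at 3.55, 4.69, 4.99 and 2.82 CPM in controls and at 8.32, 10.9 and 13.2 CPM in labelled knockouts. The groups did not overlap, but the gap was small, with the lowest labelled knockout 1.67 times the highest control. The log2 fold change was 1.43 (SE 0.27), and Tac1 was present in every control.

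**Figure D1:**
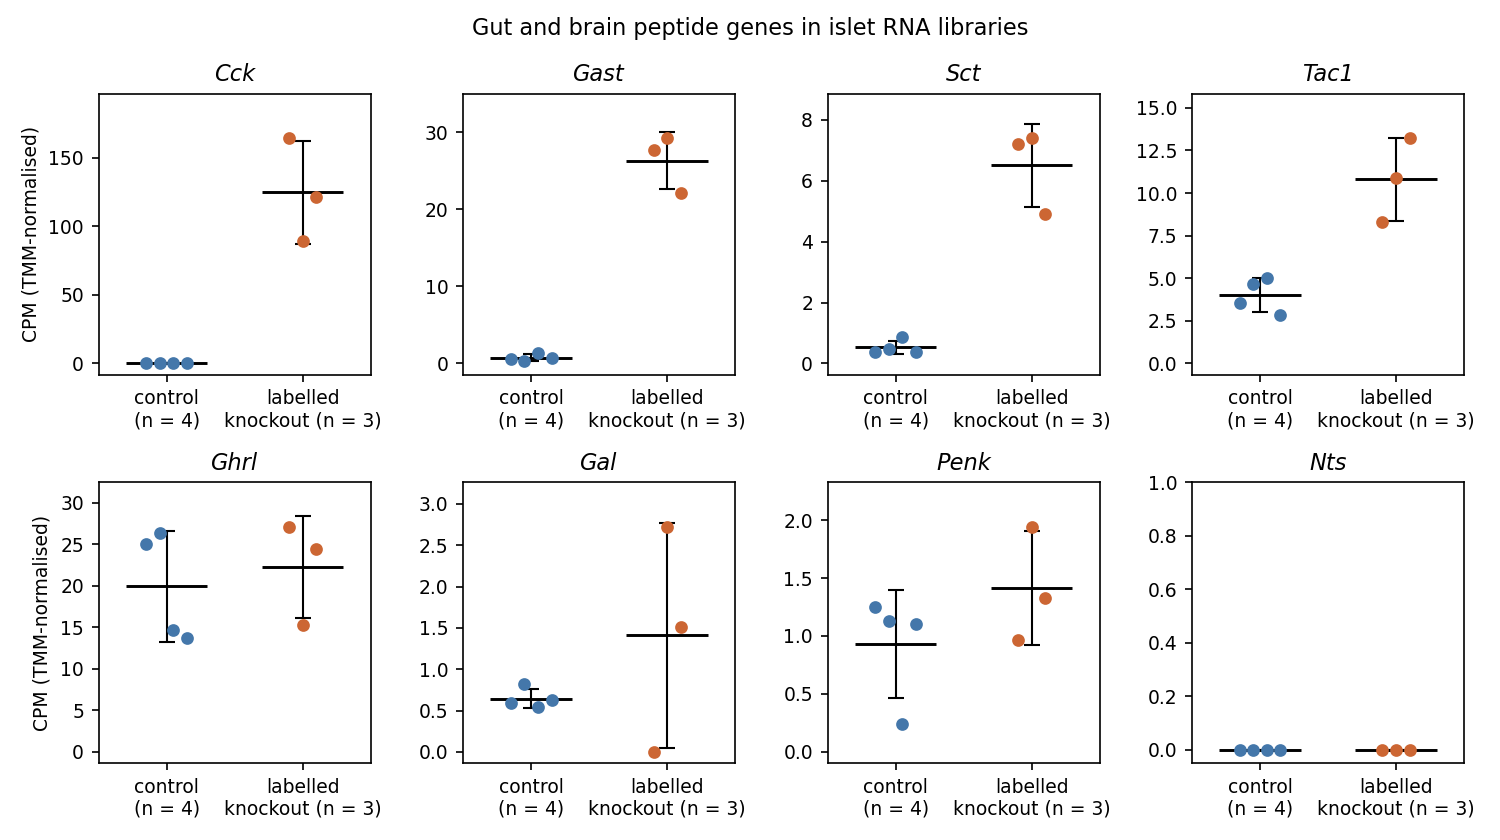
Levels of the 8 peptide genes in each islet library, in TMM-normalised CPM on linear axes of different range, with points for libraries, a horizontal line for the group mean and bars for 1 SD (4 control and 3 labelled knockout libraries). Cck, Gast, Sct and Tac1 do not overlap between the groups, Ghrl, Gal and Penk do, and Nts has no reads.

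The name given to the list is peptides appearing in islets, but Tac1 was already at 2.82 to 4.99 CPM in the controls. The 4 genes besides Cck, Gast, Sct and Tac1 did not follow that name either. Ghrl, the ghrelin precursor (chr6:113716119-113719911, minus strand), was at 25.0, 26.4, 14.7 and 13.7 CPM in controls and at 27.1, 15.3 and 24.4 CPM in labelled knockouts. The groups overlapped throughout, and the log2 fold change was 0.15 (SE 0.26). Within the controls, the libraries with Xist reads were the 2 higher ones, whereas in the labelled knockouts the library without them lay between the other two. This split was looked at after the values were seen, and with Xist as a covariate the log2 fold change was 0.149.

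Gal, the precursor of galanin, an inhibitory neuropeptide of islet and gut nerves (chr19:3409915-3414544, minus strand), was at 0.592, 0.817, 0.548 and 0.622 CPM in controls. It was at 0, 2.72 and 1.51 CPM in labelled knockouts, so the labelled knockouts lay on both sides of the controls. The log2 fold change of 1.14 (SE 0.85) became 0.281 without labelled knockout 2 and 0.137 with limma-voom. Penk, the enkephalin precursor (chr4:4133536-4138815, minus strand), was at 1.25, 1.13, 0.244 and 1.1 CPM in controls and at 0.965, 1.94 and 1.33 CPM in labelled knockouts. Its groups overlapped, and the log2 fold change was 0.58 (SE 0.62). Nts, the neurotensin precursor (chr10:102481756-102490418, minus strand), had no read in any of the 7 libraries. A count of 0 allows up to 0.0624 to 0.164 CPM in a control library and up to 0.133 to 0.248 CPM in a labelled knockout (3 counts of the library total, counting error only).

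In all, 7 of the 8 genes passed the filter on low counts and 4 of them (Cck, Gast, Sct and Tac1) were called higher at an edgeR adjusted p under 0.05. Over all 14529 genes tested, 8.73% were called higher and 5.25% lower, or 1268 and 763 genes. The same 4 genes were higher with no overlap between groups, as were 14.0% of all genes tested. Nothing is read from these counts, because the list was selected on this comparison, and Cck and Sct passed the filter only through the group where they were high. Scaling by library size alone moved the median log2 fold change of all genes from 0.007 to 0.175 and the calls to 1854 higher and 324 lower. In bulk islet RNA, more cells of a type and more RNA per cell cannot be told apart.

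Within the labelled knockouts, Cck, Gast, Sct and Tac1 were not highest in the same library. Relative to its own mean, Cck was 1.32, 0.714 and 0.97 in labelled knockouts 1 to 3. Gast was 1.05, 1.11 and 0.84, and Sct was 1.11, 1.14 and 0.756. Tac1 was 0.768, 1.01 and 1.22, lowest in labelled knockout 1, where Cck was highest. The highest labelled knockout was 1.84 times the lowest for Cck, 1.32 times for Gast, 1.5 times for Sct and 1.59 times for Tac1.

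Stomach and intestine genes were read beside them, since Cck, Gast, Sct and Ghrl are made in the gut wall. Of 13 stomach epithelium markers, 12 were in the table and 4 were tested, and their summed level was 15.7 to 27.9 CPM in controls and 48.0 to 180 CPM in labelled knockouts. Pgc (log2 fold change 9.95, SE 2.26, edgeR adjusted p = 0.046) and Gkn3 (8.25, SE 1.29, edgeR adjusted p = 0.00965) rose, and the proton pump gene Atp4a fell by 1.35 on the log2 scale (SE 0.22, edgeR adjusted p = 0.00107). The Pgc call was lost in 8 of 16 alternatives (edgeR adjusted p of up to 0.448), among them leaving out labelled knockout 3 or any single control, and the Gkn3 call was lost without control 1 (0.0524) and with limma-voom (0.26). The stomach markers Gkn1, Gkn2, Tff1, Muc5ac and Atp4b were at 0 in all 7 libraries. Muc6, Chia1 and Gif, named after their values were seen, were too low to test. In labelled knockouts 1 to 3, Muc6 was at 10.2, 0 and 2.48 CPM, Chia1 at 0.668, 0.173 and 0.531 CPM, and Gif at 1.19, 0 and 0 CPM. In any control they were at most 0.0389, 0.136 and 0.104 CPM. Tff2, named after its values were seen, was at 1.85, 16.4, 2.5 and 14.8 CPM in controls and at 50.6, 49.2 and 20.9 CPM in labelled knockouts. It was higher with no overlap but not called (log2 fold change 2.15, SE 0.90, edgeR adjusted p = 0.198), and differed 2.42-fold among labelled knockouts. Pgc differed 64.6-fold and Gkn3 9.63-fold between the highest and lowest labelled knockout. Without labelled knockout 1, the library highest in both, the log2 fold changes were 9.356 for Cck, 5.234 for Gast, 3.576 for Sct and 1.586 for Tac1. Gkn3 was still at 5.57 and 11.2 CPM in labelled knockouts 2 and 3. The part of stomach tissue in the peptide genes' differences was not tested.

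Of 12 intestinal markers, 3 were tested and trefoil factor 3 (Tff3) rose (log2 fold change 4.61, SE 0.56, edgeR adjusted p = 8.2e-05). Their summed level was 77.1 to 93.5 CPM in controls and 90.9 to 120 CPM in labelled knockouts, and Cdx1, Cdx2, Fabp1, Alpi, Sis and Defa17 were at 0 in all 7 libraries. Among 12 gut endocrine markers, 6 are genes of the peptide list itself. Of the rest, Lmx1a was at 0, Tph1 was at most 0.0443 CPM and Insl5 at most 0.133 CPM in any library, Fev was not called, Gip rose and Pyy fell, with the values given below.

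Nerve markers were read beside Tac1, Gal and Penk. Their summed level was 259 to 306 CPM in controls and 315 to 389 CPM in labelled knockouts, with 14 of 14 detected and 12 tested. Of the 12 tested, 1 was called higher and 2 lower, beside 8.73% and 5.25% of all genes, and 9 were not called. Tyrosine hydroxylase (Th) rose (log2 fold change 1.93, SE 0.14, edgeR adjusted p = 1.3e-06). Th alone went from 43.8 ± 6.95 CPM (SD, n = 4) to 167 ± 19.1 CPM (SD, n = 3), a larger rise than that of the sum. The receptor Ret fell by 0.64 (SE 0.12, edgeR adjusted p = 0.00223). The neuronal tubulin Tubb3 fell by 0.56 (SE 0.17, edgeR adjusted p = 0.0468), a call lost in 8 of 16 alternatives, among them the block (0.0582) and leaving out any single control, labelled knockout 1 or labelled knockout 3. The summed Schwann and glial markers overlapped, at 35.9 to 50.5 CPM and 34.5 to 57.1 CPM.

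Markers of other cell types differed in part between the groups. Duct markers summed to 408 to 463 CPM in controls and 1060 to 1300 CPM in labelled knockouts, where Spp1 (4.29, SE 0.27, edgeR adjusted p = 1.8e-06) and Epcam (1.05, SE 0.12, edgeR adjusted p = 5.0e-05) rose among 8 tested. Spp1 alone went from 30.5 ± 9.92 CPM (SD, n = 4) to 598 ± 132 CPM (SD, n = 3). Acinar markers summed to 762 to 4600 CPM and 2380 to 13700 CPM, with labelled knockout 2 highest. The edgeR adjusted p of the 16 tested was 0.345 to 0.643 without the block, and 13 were called higher with the replicate number as a block, among them Cpa1 (log2 fold change 1.95, edgeR adjusted p = 6.6e-07), Clps (1.96, edgeR adjusted p = 3.6e-07) and Ctrb1 (2.18, edgeR adjusted p = 1.1e-06), which were picked after their values were seen. Mesenchymal markers summed to 309 to 402 CPM and 453 to 586 CPM, and Rgs5 (0.61, SE 0.15, edgeR adjusted p = 0.0132) and Dcn (0.92, SE 0.24, edgeR adjusted p = 0.0221) rose among 10 tested. Those calls were lost in 3 and 5 of 16 alternatives, each of them leaving out 1 library, and with the block 4 mesenchymal markers were called higher, Col1a2 and Col3a1 being the others. Lymphatic markers summed to 23.1 to 31.1 CPM and 40.1 to 60.2 CPM, and Lyve1 rose (1.75, SE 0.19, edgeR adjusted p = 3.6e-05) among 4 tested. Lyve1 alone went from 9.95 ± 2.04 CPM (SD, n = 4) to 33.5 ± 6.46 CPM (SD, n = 3). The other 3 lymphatic markers tested were not called, with log2 fold changes of -0.04 (Flt4), -0.72 (Pdpn) and -0.44 (Reln). Over all genes tested, 8.73% were called higher. Endothelial markers summed to 742 to 830 CPM and 835 to 1050 CPM, and immune markers to 122 to 181 CPM and 143 to 218 CPM. Amy2a5 of the acinar list, Onecut1 of the duct list, and Ccl21a and Mmrn1 of the lymphatic list had no read in any library. All 15 islet endocrine markers were tested, and 4 were called higher and 6 lower, beside 8.73% and 5.25% of all genes. Their sum was 397000 to 658000 CPM in controls and 260000 to 378000 CPM in labelled knockouts. Members of this list went in both directions under that lower sum. The granule protein Chgb rose by 2.62 (SE 0.16, edgeR adjusted p = 3.7e-07) and transthyretin (Ttr) by 1.65 (SE 0.16, edgeR adjusted p = 1.3e-05), and Iapp and Pcsk2 rose too, with values given below. The glucose transporter Slc2a2 fell by 2.49 (SE 0.23, edgeR adjusted p = 8.4e-06). Ins1, Ins2, Chga and Slc30a8, named after their values were seen, and Ppy also fell, and Ins2 went from 272000 ± 61800 CPM (SD, n = 4) to 90300 ± 29100 CPM (SD, n = 3). The part of these cell types in the peptide genes' differences was not tested.

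Receptors of the 8 peptides were described next. Of 16 receptors, 9 were tested, 2 were called higher, beside 8.73% of all genes, and the other 7 were not called, with a median log2 fold change of 0.88 against 0.007 for all genes. Oprm1, the mu opioid receptor that binds enkephalins, was at 1.43, 1.38, 0.913 and 1.77 CPM in controls and at 6.24, 6.0 and 7.31 CPM in labelled knockouts. The groups did not overlap, and the log2 fold change was 2.24 (SE 0.33, edgeR adjusted p = 4.1e-04). Galr2, a galanin receptor, was at 1.71 to 2.56 CPM in controls and at 6.61, 7.9 and 3.45 CPM in labelled knockouts (log2 fold change 1.45, SE 0.35, edgeR adjusted p = 0.0132). That call was lost without labelled knockout 2, with an edgeR adjusted p of 0.0626.

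The receptors of cholecystokinin and gastrin were not called. Cckar was at 1.15 to 2.2 CPM in 3 controls and 0.731 CPM in the other, and at 0.371, 9.2 and 1.28 CPM in labelled knockouts. Only labelled knockout 2 was high, the library with the highest acinar sum, and the log2 fold change of 1.45 (SE 0.80, edgeR adjusted p = 0.265) turned to -0.646 without it. Cckbr had a log2 fold change of 0.88 (SE 1.07, edgeR adjusted p = 0.645). Ghsr, the ghrelin receptor, was at 2.96, 2.76, 2.74 and 1.05 CPM in controls and at 0, 0 and 0.974 CPM in labelled knockouts. Every labelled knockout was below every control, but the log2 fold change of -2.77 (SE 1.0) missed the threshold with an edgeR adjusted p of 0.0862, and passed it with the replicate number as a block (edgeR adjusted p = 0.0306). Without labelled knockout 3 the remaining labelled knockouts held no Ghsr read, and the edgeR adjusted p was 0.00218.

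The controls averaged 28.2 ± 4.76 CPM (SD, n = 4) of Galr1 and the labelled knockouts 19.8 ± 1.73 CPM (SD, n = 3), a log2 fold change of -0.51 (SE 0.16). Its edgeR adjusted p was 0.0532, and 0.0184 with the block. Sort1, which binds neurotensin, had a log2 fold change of -0.29 (SE 0.11, edgeR adjusted p = 0.094). The substance P receptor Tacr1 and Tacr2 had no read in any library, and the secretin receptor Sctr, the enkephalin receptor Oprd1 and the neurotensin receptor Ntsr1 were too low to test. Tacr3, another tachykinin receptor, named after its values were seen, was at 0.661 to 1.64 CPM in controls and 2.08 to 2.94 CPM in labelled knockouts. It was not called (log2 fold change 1.37, SE 0.52, edgeR adjusted p = 0.101), but was called with DESeq2 (DESeq2 adjusted p = 0.0375) and limma-voom (limma-voom adjusted p = 0.0324).

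The enzymes that make peptides from precursors were measured in both groups, and all 16 were tested. Of these, 8 were called higher, beside 8.73% of all genes, and the other 8 were not called. Their median log2 fold change was 0.45. The convertase Pcsk1 was at 213 to 226 CPM in controls and at 557 to 646 CPM in labelled knockouts (log2 fold change 1.47, SE 0.11, edgeR adjusted p = 1.8e-06). The amidating enzyme Pam rose by 1.27 (SE 0.12, edgeR adjusted p = 1.2e-05) and the protease Ctsl by 1.19 (SE 0.13, edgeR adjusted p = 2.7e-05). Carboxypeptidase E (Cpe, 0.86), the convertase chaperone Scg5 (0.79), Pcsk2 (0.75) and Pcsk6 (0.74) also rose. Tpst1, a tyrosine sulfotransferase, rose by 0.47 (SE 0.13, edgeR adjusted p = 0.0214), a call that ended when control 2 or 3, or labelled knockout 1 or 3, was left out (edgeR adjusted p 0.0524 to 0.0776). Sulfation is a known step in the maturation of cholecystokinin. Mboat4, the acyltransferase of ghrelin, was at 0 to 0.506 CPM in all libraries and was not called (log2 fold change -0.48, SE 1.12).

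Among 9 peptidases that degrade such peptides, 8 were tested. Aminopeptidase N (Anpep) fell by 1.27 (SE 0.13, edgeR adjusted p = 2.1e-05), from 114 ± 15.2 CPM (SD, n = 4) to 47.4 ± 4.17 CPM (SD, n = 3). Dpp4 had a log2 fold change of 0.48 (SE 0.15, edgeR adjusted p = 0.0485), and its call was lost in 9 of 16 alternatives, with an edgeR adjusted p of up to 0.231. The other 6 tested were not called.

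**Figure D2:**
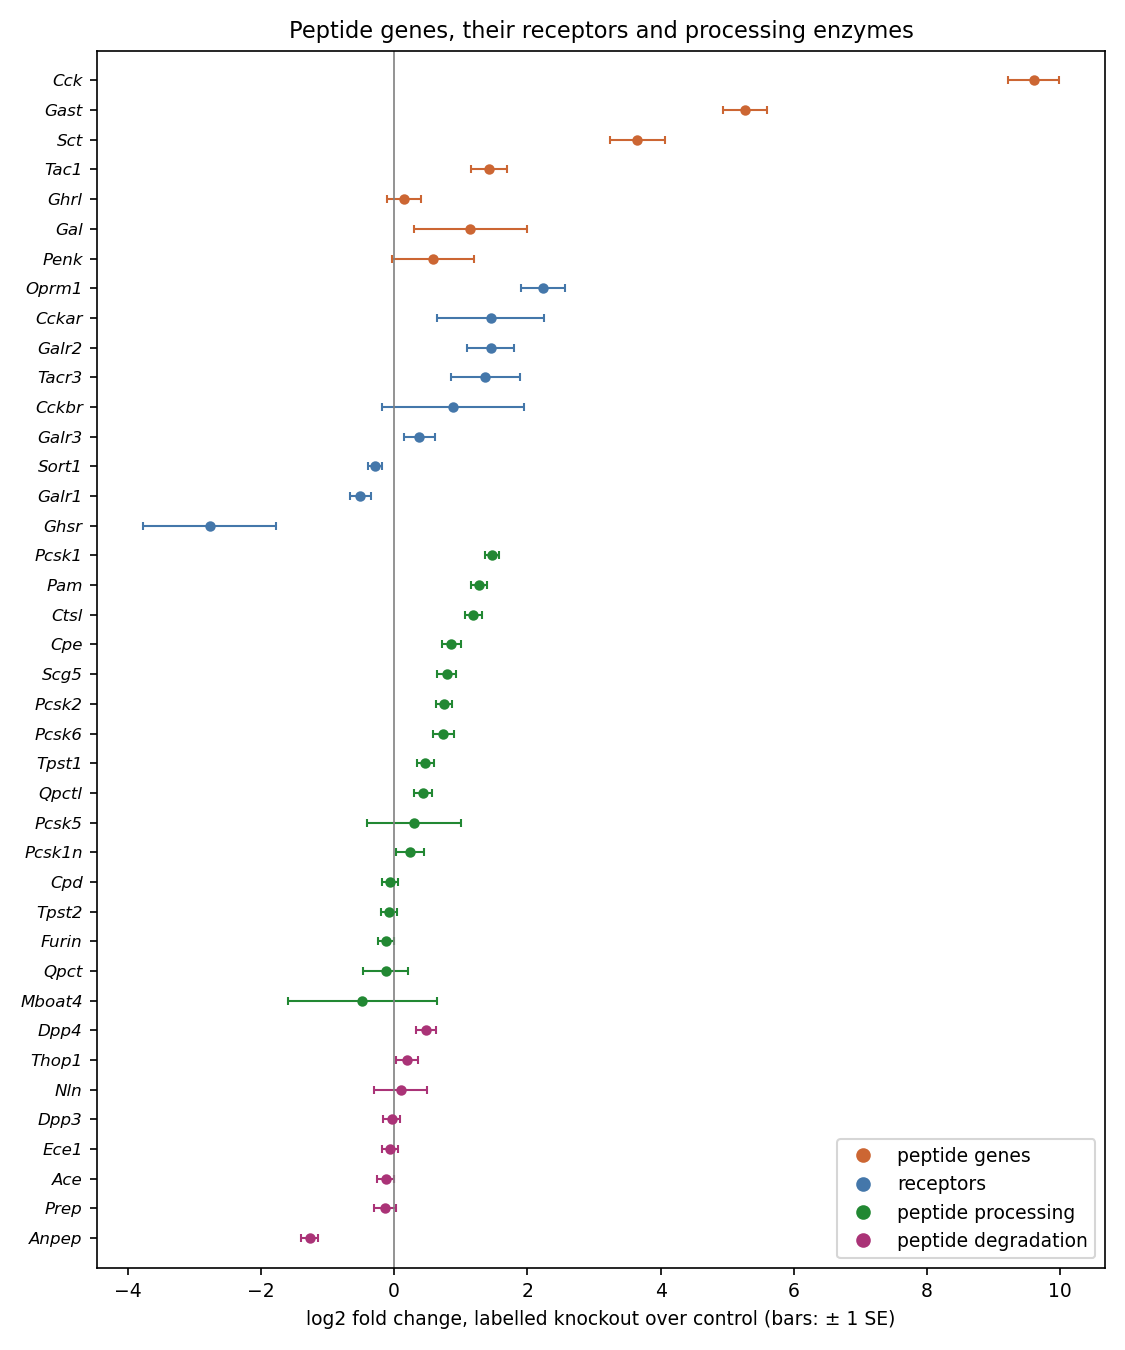
Log2 fold change of labelled knockout over control with bars of 1 SE, for the 7 tested peptide genes, 9 receptors, 16 processing enzymes and 8 peptidases. The peptide genes are shown as a description, since they were chosen from this comparison, and Cck at 9.60 lies far to the right of the processing enzymes, whose highest value is 1.47 for Pcsk1.

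The peptide list holds a small share of the peptide precursors, and 56 others were counted to place it. Of these, 29 were tested, 10 were called higher and 2 lower, beside 8.73% and 5.25% of all genes. Their median log2 fold change was 0.39. Pdyn, the precursor of dynorphins, was at 21.4, 7.37, 16.6 and 18.8 CPM in controls and at 1940, 1480 and 1280 CPM in labelled knockouts (log2 fold change 6.62, SE 0.38, edgeR adjusted p = 6.2e-06). Calca, the precursor of calcitonin and its gene-related peptide, was at 0.913 to 1.74 CPM in controls and at 50.4, 13.4 and 13.0 CPM in labelled knockouts. Its log2 fold change was 4.31 (SE 0.53, edgeR adjusted p = 6.2e-04), and 3.364 without labelled knockout 1, the highest library.

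Vgf, a granule protein of neuroendocrine cells, rose by 4.13 (SE 0.16, edgeR adjusted p = 6.6e-09), and Npy by 2.03 (SE 0.14, edgeR adjusted p = 9.1e-07). Iapp, the amyloid peptide of beta cells, rose by 1.84 (SE 0.16, edgeR adjusted p = 3.8e-06), and Scg2, another granule protein, by 0.99 (SE 0.13, edgeR adjusted p = 1.5e-04). The 2 that fell, Ppy and Pyy, belong to the neuropeptide Y family. Ppy went from 6330 ± 2200 CPM (SD, n = 4) to 478 ± 172 CPM (SD, n = 3), and fell by 3.73 (SE 0.42, edgeR adjusted p = 8.4e-04). Pyy fell by 1.43 (SE 0.18, edgeR adjusted p = 1.0e-04).

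The remaining 4 called precursors are named because of their values. Gip, another hormone of the duodenum, was at 0.139, 0.0583, 0 and 0 CPM in controls and at 3.12, 0.907 and 1.37 CPM in labelled knockouts. Its log2 fold change was 4.85 (SE 0.96, edgeR adjusted p = 0.00383), or 5.668 without control 1 and 4.214 without labelled knockout 1. Cartpt rose by 4.04 (SE 0.52, edgeR adjusted p = 7.5e-04), or by 3.424 without labelled knockout 1, and Pomc rose by 1.31 (SE 0.29, edgeR adjusted p = 0.00819). Vip rose by 1.13 (SE 0.30, edgeR adjusted p = 0.042), a call lost in 8 of 16 alternatives, among them the block (edgeR adjusted p = 0.178) and leaving out control 1, control 2, control 4, labelled knockout 2 or labelled knockout 3.

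**Figure D3:**
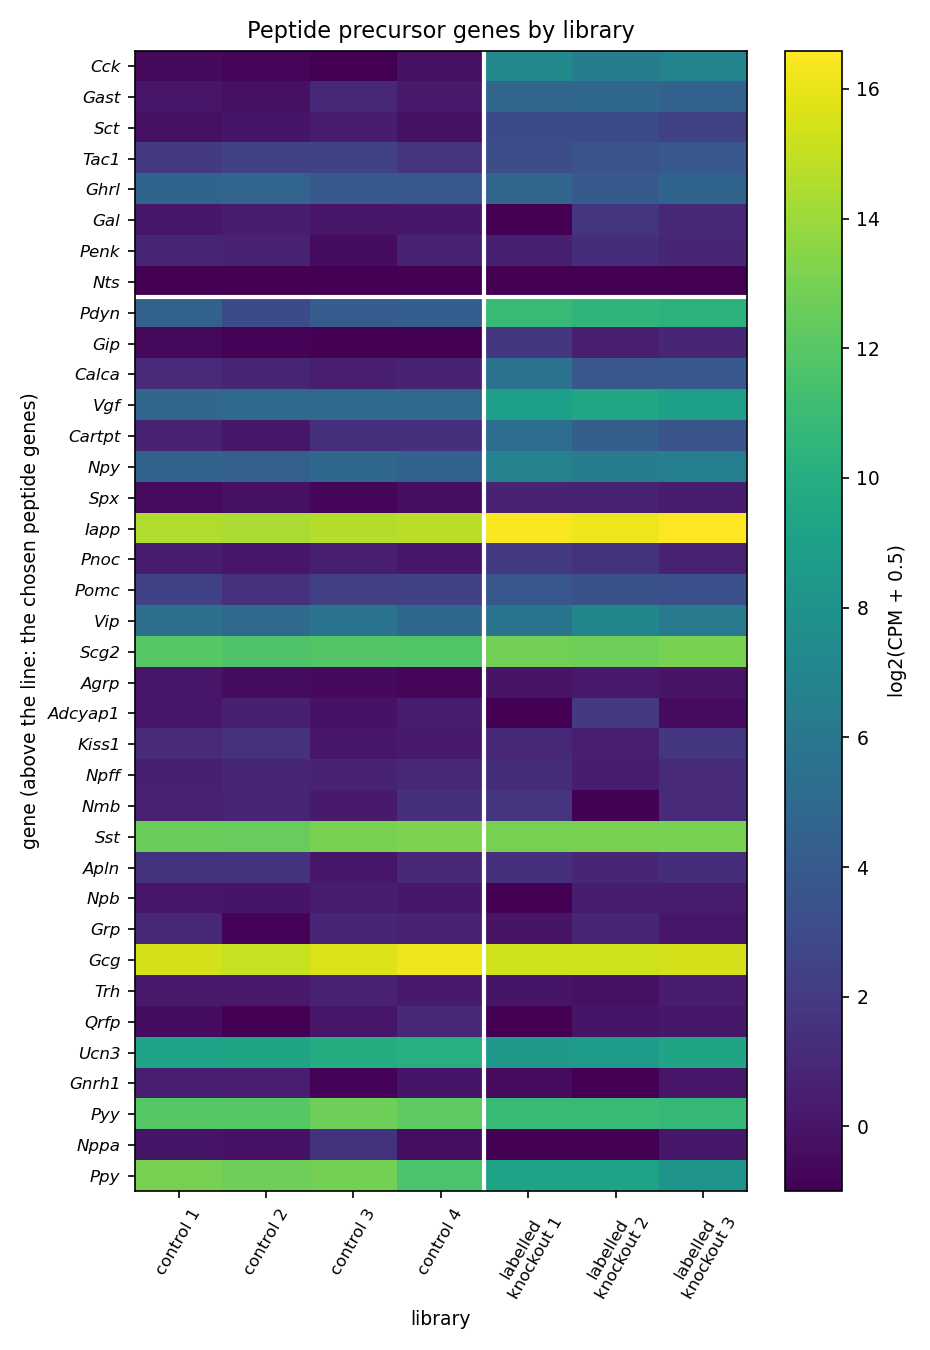
Log2(CPM + 0.5) of the 8 chosen peptide genes (above the line) and the 29 other tested peptide precursors, ordered by log2 fold change, in 4 control and 3 labelled knockout libraries. Pdyn runs from 7.37 to 21.4 CPM in controls to 1280 to 1940 CPM in labelled knockouts, while Ppy at the foot goes the other way.

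Transcription factors shared by islet and gut endocrine cells were mostly not called. Of 24 factors, 20 were tested, 2 were called higher and 2 lower, beside 8.73% and 5.25% of all genes. Their median log2 fold change was -0.25. Isl1 rose by 0.73 (SE 0.11, edgeR adjusted p = 6.5e-04), from 130 to 154 CPM in controls to 237 to 250 CPM in labelled knockouts. Rfx6 rose by 0.45 (SE 0.12, edgeR adjusted p = 0.0243). Neurod1 fell by 0.58 (SE 0.16, edgeR adjusted p = 0.0264) and Gata6 by 0.62 (SE 0.17, edgeR adjusted p = 0.0289). The last 3 calls were each lost in 4 or 5 of 16 alternatives, with edgeR adjusted p of up to 0.0847 for Rfx6 (without labelled knockout 1), 0.111 for Neurod1 (without labelled knockout 1) and 0.184 for Gata6 (library size alone). Leaving out control 1, control 4 or labelled knockout 3 also ended the Rfx6 call, control 3, control 4 or labelled knockout 3 the Neurod1 call, and control 1, control 3, labelled knockout 2 or labelled knockout 3 the Gata6 call. Neurog3, named after its values were seen, was lower with no overlap but not called (log2 fold change -2.13, SE 0.78, edgeR adjusted p = 0.126). It averaged 11.9 ± 2.79 CPM (SD, n = 4) in controls and was at 0.0743, 5.36 and 2.35 CPM in labelled knockouts. Neurog3 was called in 2 of 16 alternatives, without labelled knockout 1 (edgeR adjusted p = 0.00973) and without labelled knockout 2 (0.0364). Lmx1a and the intestinal factor Cdx2 had no read in any library. Over receptors, processing enzymes, peptidases and factors together, 53 genes were tested, 13 were called higher and 3 lower, or 6 lower with the replicate number as a block. The lower count was 5 without control 2 and 1 without control 3. Over all genes tested, 8.73% were higher and 5.25% lower in the main fit.

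Glis3-eGFP peaks lay near 2 of the 8 peptide genes. A peak midpoint was within 10 kb of the 5′ end of Gast and of Sct, against 52.9% of all genes in the table and 80.5% of the genes tested. Within 1 kb it was 1 gene of 8, against 43.1% of all genes in the table. Within 50 kb it was 4 of 8, against 69.5%, and within 100 kb 7 of 8, against 77.5%. The peaks carry no score, so only their position is given.

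The Sct peak (chr7:141278996-141279195) was centred 38 bp downstream of the 5′ end and covers the bases in capitals in its promoter above. A peak this near was found at 4.77% of genes. At Gast, a peak (chr11:100335753-100335952) lay inside the gene, 1.45 kb from its 5′ end, and another 4.02 kb upstream. Cck, the gene with the largest difference, had its nearest peak 65.1 kb downstream, nearest to the start of Trak1.

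The nearest peak of Ghrl was 20.6 kb upstream, at the start of Sec13 (0.156 kb), and that of Gal was 25.3 kb downstream, at the start of Tesmin (0.359 kb). The nearest peaks of Penk and Tac1 were 84.2 kb and 85.3 kb upstream, and that of Nts was 387 kb away, nearest to Alx1. Of the other precursors that rose, Pdyn had its nearest peak 101 kb away and Calca 73.5 kb away, while Npy (0.5 kb) and Iapp (0.102 kb) had one close by. These 4 were picked after their values were seen.

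**Figure D4:**
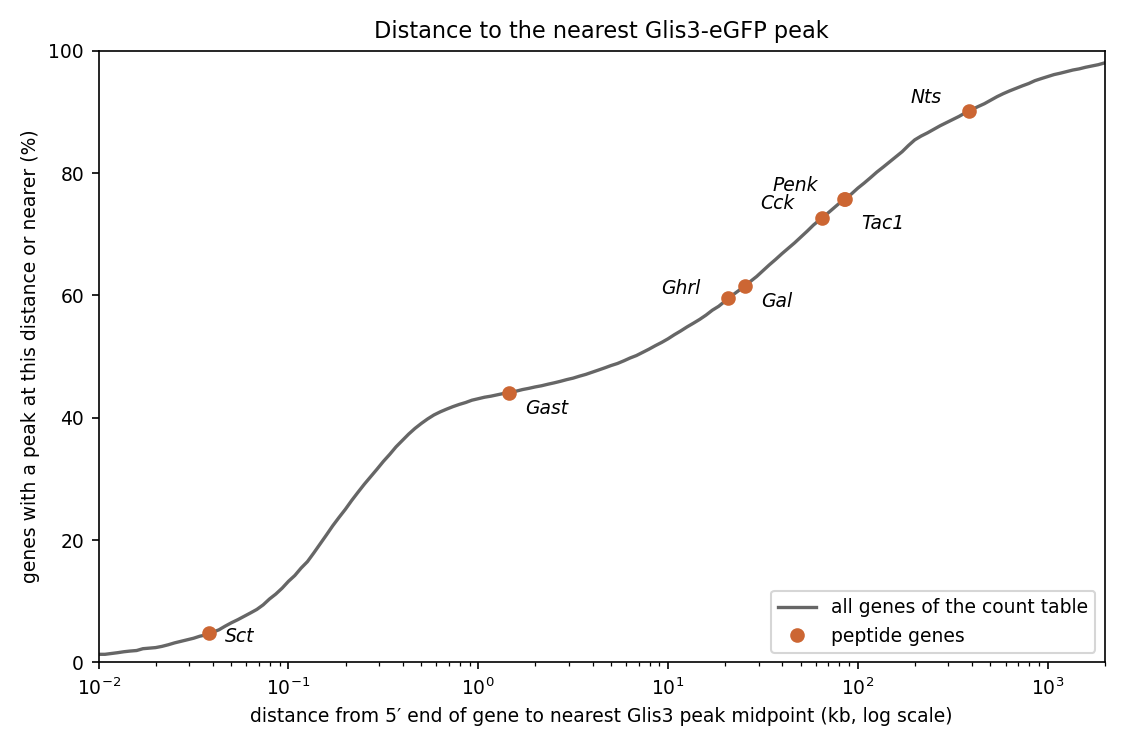
Share of all 25611 genes (y axis, percent) with a Glis3-eGFP peak midpoint at or within a given distance of the 5′ end (x axis, kb, log scale), with the 8 peptide genes marked on the curve. Sct at 0.038 kb and Gast at 1.45 kb lie to the left, and Nts at 387 kb lies to the right.

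Genes next to the peptide genes were read to see whether a whole stretch of chromosome moved. No other gene in the table overlaps any of the 8. Of the 2 nearest genes on each side, 18 were tested, 2 were called higher, 1 lower and 15 were not called. Over all genes tested, the shares were 8.73% higher and 5.25% lower. Trak1, 14.9 kb from Cck, had a log2 fold change of 0.33 (SE 0.15, edgeR adjusted p = 0.172). Beside Gast, Eif1 (12.3 kb) had a log2 fold change of -0.05 (SE 0.14, edgeR adjusted p = 0.871).

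On the other side of Gast, Hap1 (10.3 kb) rose by 1.37 (SE 0.16, edgeR adjusted p = 5.2e-05), from 231 ± 14.3 CPM (SD, n = 4) to 599 ± 152 CPM (SD, n = 3). Sec13 (8.14 kb from Ghrl) rose by 0.43 (SE 0.11, edgeR adjusted p = 0.022), and Lrp5 (170 kb from Gal) fell by 0.62 (SE 0.15, edgeR adjusted p = 0.011). The Sec13 call ended when control 2 or 3, or labelled knockout 1 or 2, was left out (edgeR adjusted p 0.0528 to 0.0944), and the Lrp5 call with library size alone (0.153). Hap1 and Lrp5 are named after their values were seen. Tesmin and Alx1 were too low to test. Near Sct, Cdhr5 (1.54 kb) was too low to test, Drd4 (12.9 kb) had no read, and Deaf1 (18.0 kb) had a log2 fold change of 0.10 (SE 0.11, edgeR adjusted p = 0.616).

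The genes most like each peptide gene were ranked by Pearson's r of log2(CPM + 0.5) over the 7 libraries, as a description. For Cck, Gast, Sct and Tac1 the measure mostly reads the difference between the groups. Among the leading genes were Atp6v0e2 (r = 0.998) and Atp6ap1 for Cck, Lsr (0.997), Amph and Pcsk2 for Gast, Ctcfl (0.999), Gldc and Selenon for Sct, and Hist1h2be (0.985), Mgp and Tgfa for Tac1. For Ghrl, whose groups overlap, they were Nr4a1 (0.985), Ankrd27 and Klhl42. For Penk they were Car5b (0.977), Fbp1 and Msrb3, and for Gal Nfam1 (0.987), Armc2 and Pde3a. All were picked as the highest of 14529 genes over 7 libraries, with predicted genes left out. A high r is thus no test of a link. By Spearman's rho, 19 of 21 values counted as the same, and Ankrd27 (0.714) and Msrb3 (0.5) were lowest.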

How the data were processed

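RNA sequencing covered islets of 4 control and 3 labelled knockout mice, and chromatin immunoprecipitation (ChIP) of Glis3 covered 1 library. For RNA, the authors deposited raw read counts for each gene, with its mm10 coordinates. Per the submitters' processing notes, STAR 2.5, featureCounts 1.5.0-p1 and DESeq2 were in use, and neither the annotation nor the strand option is given in the sources used here. For binding, the authors deposited each peak as a 200 bp interval and gave no score. The same notes list HOMER 4.9.1, Bowtie 1.2, cutadapt 1.2.1, bedtools 2.24.0 and Picard 1.110, with no roles. The input library was not analysed here.

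Genes with low counts were removed with filterByExpr, and the rest were scaled by TMM factors and compared with the edgeR 4.0.16 quasi-likelihood test (R 4.3.3). P-values were adjusted over 14529 genes by the Benjamini-Hochberg method, with calls at 0.05. The SE of a log2 fold change was its size over the square root of the F statistic. Counting intervals are exact; without molecular identifiers they describe counting error alone. The fit was tested on simulated data, where it recovered 11.9% of 1.5-fold, 53.7% of 2-fold and 89.4% of 4-fold changes. Of its 107 calls there, 3.74% were false. A gene that is not called can thus still have changed by such amounts. The simulation changed only 67, 67 and 66 of 14529 genes by these 3 amounts. The main fit called 1268 genes higher and 763 lower, so the simulated rates need not carry over to the data. Of 25611 rows, 988 repeated a symbol and were kept apart. Libraries of a group differed beyond sampling noise, with a chi-square per degree of freedom of 23.4 to 95.4. The design text says the RNA came from separate mice. Distances run from a peak's midpoint to a gene's 5′ end in the table.

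The peptide genes, the other lists and the naming rule were chosen with earlier results of these data known. Named genes are the 8 members, Glis3, called receptors, processing enzymes and peptidases, main receptors, up to 6 called precursors and factors in each direction by p, up to 4 called markers per list, the gene nearest each member's peak, and the 3 tested genes most like each member, of which 1 is not reported here. Predicted genes were left out of the ranking by likeness. Other named genes are said to be chosen after their values were seen. Same-numbered libraries deviated together from their group means (r = 0.173, 0.117 and 0.117), although control 4 and labelled knockout 3, which share no number, gave 0.157. The replicate number was used as a block in an alternative, in which control 4, with no partner, adds nothing to the difference between groups. Further alternatives were other scalings and filters, DESeq2 1.42.0, limma-voom (limma 3.58.1), leaving out each library, an adjusted p under 0.01, other peak windows, and, for likeness, Spearman's rho and a pseudocount of 2. A covariate for Xist reads was added after seeing the data.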

Additional observations from a re-analysis of the deposited data

Results flagged for a closer look

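Among 41 genes checked for a control library far from the other 3, 2 stood apart, and chance flags about 1 in 20 such groups. Penk was at 0.244 CPM in control 3, against 1.1 to 1.25 CPM in the other controls, and its log2 fold change was 0.275 without that library. Ghsr was at 1.05 CPM in control 4, against 2.74 to 2.96 CPM in the other controls, and its log2 fold change was -3.022 without that library (edgeR adjusted p = 0.0859).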

How the results depend on the processing

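Scaling by library size alone gave 324 genes lower in all and 1 lower among the receptors, processing enzymes, peptidases and factors. For those 4 lists, DESeq2 gave 7 lower, the replicate block gave 6, and an adjusted p under 0.01 gave 1. That stricter threshold left 731 genes higher and 336 lower in all. Leaving out each library in turn gave 934 to 1142 genes higher and 541 to 825 lower in all, and 10 to 12 higher and 1 to 5 lower in the 4 lists. The log2 fold change then ran from 9.266 to 10.15 for Cck (10.15 without control 4), from 4.971 to 5.671 for Gast (5.671 without control 3), and from 3.529 to 3.903 for Sct. It ran from 1.234 to 1.586 for Tac1, from -0.019 to 0.355 for Ghrl, from 0.275 to 0.779 for Penk and from 0.281 to 1.686 for Gal. The replicate block gave 10.09 for Cck, and limma-voom gave 0.137 for Gal. The filter of at least 1 CPM in 3 libraries gave no value for Gal. Peptide genes with a peak near the 5′ end were 1 within 1 kb, 4 within 50 kb and 7 within 100 kb (43.1%, 69.5% and 77.5% of all genes), and 2 within 10 kb of the gene span. For 34 other named genes under 16 alternatives, 490 of 542 values kept their direction and their side of the threshold, 41 lost a call and 10 gained one. The other, Cckar, turned to a log2 fold change of -0.646 without labelled knockout 2 (-0.646 to 1.952 over single libraries left out), and was not called. The block ended the calls of Glis3, Vip and the nerve marker Tubb3, and made those of Ghsr, Galr1, 13 acinar markers, Col1a2, Col3a1, Eng, Pcsk1n, Ucn3 and Myt1. It changed no other call in the lists. With the covariate for Xist reads, chosen after seeing the data, 1445 genes were higher and 863 lower in all. The low counts of Cck and Sct in controls limit the precision of their fold changes.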
